A study of Mus musculus with 4 samples.

Results

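The response of 3T3 cells, immortalised fibroblasts of mouse embryos, to 2 h of tumour necrosis factor (TNF) is described here. A single array of treated cells was set against 1 array of basal cells, which makes 2 of the 4 arrays of a time course that also sampled 0.5 and 12 h. Per the labels, all cells were kept overnight in 0.5% serum; basal cells were then harvested, and the others received TNF first. The labels name 10 ng/ml of TNF for 0.5 and 12 h, whereas for the 2 h sample the treatment text is the same as for basal cells, with no concentration; its title and source name place it at 2 h of TNF. No genotype, allele or second agent is named for any group, and all groups shared the overnight period in low serum. Cells held for 2 further hours in low serum without TNF are not among the 4 arrays, so TNF and the added time cannot be told apart. With 1 array in each group there was no spread between replicates and 0 tests were run. "Rose" and "fell" below mean at least 2-fold on these 2 arrays.

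The arrays were Affymetrix 430 2.0 arrays, on which each gene is read by 1 or more probe sets of short oligonucleotides, and a signal is the deposited intensity in arbitrary units. A gene was analysed where its probe set reached a signal of 102, the 75th percentile over the 4 arrays' values, on either of the 2 arrays. This is called a clear signal below. It left 7124 of 18193 named genes, of which 6573 were clear on both arrays, 387 on the basal array alone and 164 on the 2 h array alone. Signals under 9.08, the 30th percentile, were raised to that floor before a ratio was taken, and where either signal was raised the ratio is a lower bound.

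TNF binds receptors on the cell surface that activate the IKK kinases. These mark the inhibitory IkB proteins for destruction and so free the transcription factor NF-kB to enter the nucleus. NF-kB then switches on genes of chemokines, adhesion molecules and survival factors, together with genes of its own inhibitors, which bring the signal down again. In fibroblasts this programme is known for recruiting leukocytes to injured or infected tissue.

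At 2 h, 54 of the 7124 genes (0.758%) rose and 20 (0.281%) fell. The rises were led by chemokine genes, by genes of NF-kB inhibitors and subunits, and by the adhesion molecule genes Icam1 and Vcam1. The falls were led by the transcription factor genes Nr4a1, Egr3 and Egr1, which belong to the early genes that serum and growth factors induce. Of the rises, 18 were at least 4-fold, 9 at least 8-fold and 5 at least 16-fold. Of the falls, 2 were at least 4-fold and 0 were 8-fold. The median log2 ratio was 1.69 over the genes that rose and -1.23 over those that fell.

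The 2 h array as a whole lay slightly under the basal array. The median log2 ratio of the 7124 genes was -0.12, with 1809 genes above 0 and 5315 below, and 95% of the genes lay between -0.62 and 0.43. The median signal of all probe sets was 22.1 on the basal and 20.7 on the 2 h array. The split of the changed genes moved with this shift: 73.0% of them were higher as deposited (54 against 20), 85.4% after median centring or loess (70 against 12) and 85.0% after quantile normalization (68 against 12). All 54 rises and 12 of the 20 falls were kept under each of the 3 scalings. The ratio of 3′ to 5′ signal, a measure of RNA integrity, was 1.21 and 1.24 for Actb and 0.736 on both arrays for Gapdh. Medians of gene lists below are to be read against -0.12, and as descriptions, since a gene clear on 1 array alone could enter only by being high there. Counts in a list are to be read against the 0.758% of all analysed genes that rose and the 0.281% that fell. A count of 0 in a list is near these shares.

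**Figure D1:**
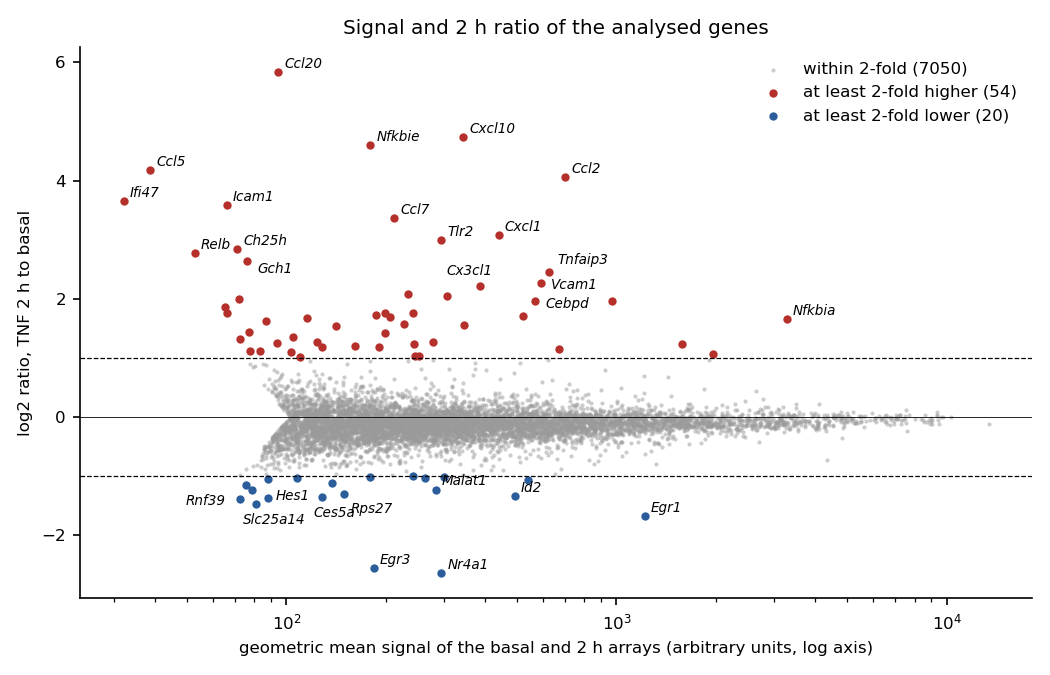
Each point is 1 of the 7124 analysed genes; the horizontal axis is the geometric mean of its signals on the basal and 2 h arrays in arbitrary units on a log axis, and the vertical axis is the log2 ratio of the 2 h to the basal array. The 54 genes that rose (red) reach a log2 ratio of 5.84, the 20 that fell (blue) go down to -2.65, and the cloud of other genes (grey) is centred at -0.12; dashed lines mark 2-fold.

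The cells carried fibroblast genes on both arrays. Of 14 fibroblast markers 11 were clear, among them Vim (9818 basal, 9758 at 2 h) and Col1a1 (3388 and 3455), and their summed signal was 40107 and 40237. Of the 14 macrophage and leukocyte markers on the array 0 were clear, with summed signals of 314 and 296, and 5 lay under the floor on both arrays. The sums of the 10 endothelial markers, with 0 clear, were 128 and 157. Among 10 epithelial markers only Krt19 was clear (170 and 124), and among 9 adipocyte markers only Fabp4, a fatty acid carrier (1856 and 1639). In bulk RNA, more responding cells and more RNA per cell cannot be told apart.

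All 6 genes that mark the 2 h response passed 2-fold; they were chosen with results of these data known, so this count is a description. Nfkbie, encoding the inhibitor IkB-epsilon, had a basal signal of 36.5, then 86.4 at 0.5 h, 885 at 2 h (24.3-fold higher) and 576 at 12 h. Cxcl10, a chemokine for activated T cells, was at 66.6, 535, 1777 and 780 in the same order, 26.7-fold higher at 2 h. Icam1, the ligand of leukocyte integrins, was at 19.1, 21.5, 228 and 152. Icam1 was thus close to its basal signal at 0.5 h, and all 3 of these genes were highest at 2 h. Vcam1, a ligand of integrins on lymphocytes and monocytes, was at 269, 618, 1293 and 973. Tlr2, the receptor for bacterial lipoproteins, was at 104, 335, 833 and 546. Cebpd, a transcription factor of the acute phase response, was at 288, 330, 1114 and 474, so that its array at 0.5 h lay close to basal and its array at 2 h was the highest of the 4.

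Chemokines direct the movement of leukocytes. Of 17 CC chemokine genes on the array 6 were clear and 5 of these rose; all but Ccl2 of the 6 were clear at 2 h alone, so this count follows from the filter. The 11 that were not clear included Ccl4 (38.3 to 12.8) and Ccl17 (27.4 to 45.3). Of 15 CXC and CX3C genes 5 were clear and 4 rose, and of these 5 all but Cxcl10 were clear on both arrays. Chemokine genes made 9 of the 54 rises. Ccl20, which attracts dendritic cells and some lymphocytes, went from 12.5 to 714, a log2 ratio of 5.84 that rests on its low basal signal. It was the largest ratio with the floor used here. With signals raised to 102 it was 2.81, below Cxcl10 (4.12), Ccl2 (4.06), Nfkbie (3.12), Cxcl1 (3.08) and Tlr2 (3.00). The monocyte chemokines Ccl2 (170 to 2851, log2 ratio 4.06) and Ccl7 (66.1 to 681, 3.37), neighbours in one gene cluster, were still higher at 12 h, at 2961 and 825. Ccl5, which attracts T cells and monocytes, had a basal signal of 3.53, under the floor, and reached 165, at least 18.2-fold higher, with 957 at 12 h.

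The neutrophil chemokines Cxcl1 and Cxcl5 had another order. Cxcl1 was at 151, 3211, 1278 and 658 on the 4 arrays in order of time, so that its 8.45-fold rise at 2 h was measured below its highest signal. Cxcl5 was at 493, 1834, 1909 and 1319, a 3.88-fold rise at 2 h with nearly the same signal at 0.5 h. Cx3cl1, a membrane-bound chemokine that also acts in adhesion, went from 179 to 834 (log2 ratio 2.22), and Ccl9, a chemokine for monocytes, from 34.3 to 124. Cxcl12, which guides stem cells and lymphocytes in unchallenged tissue, did not pass 2-fold at 822 and 841, and neither did Ccl25 at 78.0 and 105.

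**Figure D2:**
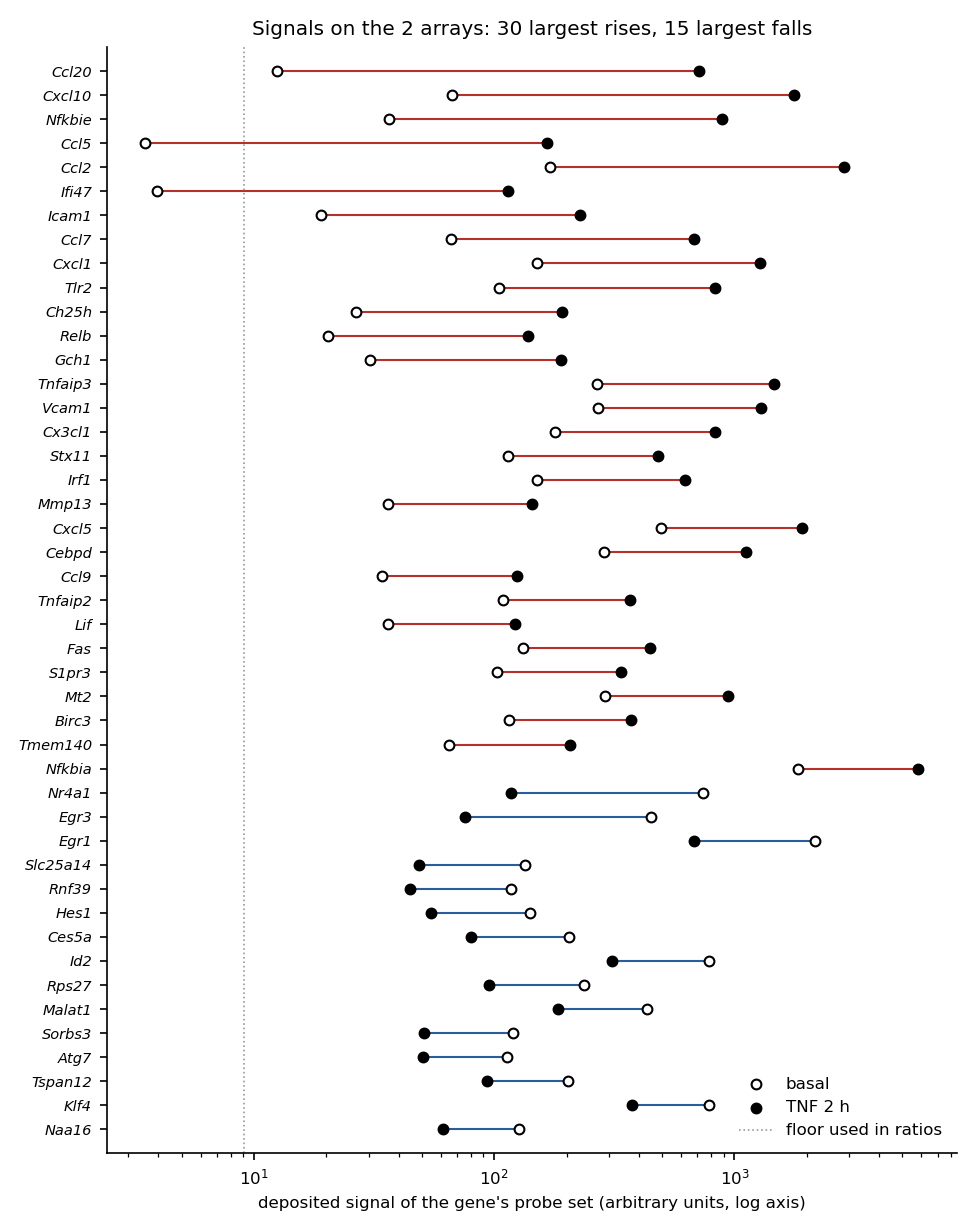
Each line joins the deposited signals of 1 gene's probe set on the basal array (open circle) and on the 2 h array (filled circle), in arbitrary units on a log axis, for the 30 largest rises (red) and 15 largest falls (blue). Ccl20 has the longest line, from 12.5 to 714; Ccl5 and Ifi47 start under the floor of 9.08 (dotted), so their ratios are bounds.

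Among genes that hold NF-kB in check, 4 of 11 clear members rose and 0 fell; the list's median was 0.03. Beside Nfkbie these were the genes of A20, IkB-alpha and IkB-zeta. Tnfaip3, encoding the ubiquitin-editing enzyme A20, was at 268, 2521, 1463 and 568 on the basal, 0.5, 2 and 12 h arrays. Nfkbia, encoding IkB-alpha, was at 1843, 7476, 5826 and 5134. Nfkbiz, whose nuclear product modulates NF-kB at selected genes, was at 132, 836, 390 and 141. Each of these 3 genes had its highest signal at 0.5 h, while Nfkbie had its highest at 2 h. Tnip1, a partner of A20, had a log2 ratio of 0.81 (234 to 410) and Nfkbib, encoding IkB-beta, of 0.03. Bcl3, another IkB relative, went from 18.9 to 57.4 and was not clear on either array.

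Of the NF-kB subunits, Relb rose 6.80-fold from 20.2 to 138 and Nfkb2 2.89-fold from 83.1 to 240.5. Their products pair in the slower, non-canonical arm of the pathway. Rela, which encodes the main activating subunit p65, was at 591 and 643. Nfkb2 had a second clear probe set with a log2 ratio of only 0.63. Among genes that carry the signal from the TNF receptor to NF-kB, 0 of 15 clear members rose and 0 fell. This is near the shares over all analysed genes, 0.758% and 0.281%. The list's median of -0.06 turned to 0.06 under median centring, quantile normalization and loess. Traf5, an adaptor of the receptors, went from 127 to 79.9 (-0.66), and Map3k7, the kinase TAK1, had a log2 ratio of -0.33. Tnfrsf1a, the main TNF receptor, was at 529 and 509.

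Promoter sequences of the 6 largest rises with a match to the kB consensus, the DNA element that NF-kB binds, show where these letters lie next to the gene start. They are taken from the RefSeq promoter table of build GRCm38.p6 and run from 200 bases before the annotated start to 10 bases after it, 5′ to 3′ along the gene. Capitals mark the kB matches. The stretches are Ccl20 at chr1:83116566-83116775 on the plus strand, Cxcl10 at chr5:92348880-92349089 on the minus strand, Nfkbie at chr17:45555500-45555709 on the plus strand, Cxcl1 at chr5:90891045-90891254 on the plus strand, Tlr2 at chr3:83841599-83841808 on the minus strand, Gch1 at chr14:47189404-47189613 on the minus strand.
Ccl20: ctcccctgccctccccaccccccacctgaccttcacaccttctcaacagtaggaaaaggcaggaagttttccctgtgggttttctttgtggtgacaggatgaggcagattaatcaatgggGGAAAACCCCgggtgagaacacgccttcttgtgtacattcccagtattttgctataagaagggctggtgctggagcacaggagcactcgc
Cxcl10: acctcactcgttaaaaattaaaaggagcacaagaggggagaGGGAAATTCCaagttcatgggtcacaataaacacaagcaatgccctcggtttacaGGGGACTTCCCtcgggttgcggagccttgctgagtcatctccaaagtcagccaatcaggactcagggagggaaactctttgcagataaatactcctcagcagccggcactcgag
Nfkbie: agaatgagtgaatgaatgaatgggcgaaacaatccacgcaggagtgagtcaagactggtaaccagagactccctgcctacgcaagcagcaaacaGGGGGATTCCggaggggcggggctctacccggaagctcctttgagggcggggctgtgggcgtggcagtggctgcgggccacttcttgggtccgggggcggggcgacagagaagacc
Cxcl1: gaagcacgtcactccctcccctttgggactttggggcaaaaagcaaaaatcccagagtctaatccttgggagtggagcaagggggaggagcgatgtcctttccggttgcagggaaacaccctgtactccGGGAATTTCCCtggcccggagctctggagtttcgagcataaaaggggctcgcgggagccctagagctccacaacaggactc
Tlr2: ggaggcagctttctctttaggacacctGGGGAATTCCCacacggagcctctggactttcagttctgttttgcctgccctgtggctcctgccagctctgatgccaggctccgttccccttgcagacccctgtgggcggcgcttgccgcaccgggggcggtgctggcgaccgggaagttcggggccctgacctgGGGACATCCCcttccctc
Gch1: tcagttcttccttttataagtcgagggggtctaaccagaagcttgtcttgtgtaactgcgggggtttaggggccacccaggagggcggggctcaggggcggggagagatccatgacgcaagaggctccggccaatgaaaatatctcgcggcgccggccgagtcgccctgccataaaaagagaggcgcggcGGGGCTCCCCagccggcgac
In Ccl20 the match begins 80 bases before the start, in Nfkbie 106 and in Cxcl1 71 (a pair of matches that begin 1 base apart). Cxcl10 has matches from 159, 104 and 103 bases before the start, and Tlr2 from 173, 172 and 8. The match of Gch1, 10 bases before the start, is rich in G and C.

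The kB consensus was searched on both strands, overlapping matches counted once a gene, in windows from 250 bases before to 50 after each start. Of the 54 genes that rose 43 had a window in the table, and 18 of these 43 (41.9%) held a match. Of the 16 genes with a window among the 20 that fell, 3 (18.8%) held one: Nr4a1, Rnf39 and Ces5a. For all 5876 analysed genes with a window the share was 12.3%, and 8.46% of the 32851 windows listed held one. Genes can have several windows, and by window the share was 39.2% of 51 among the rises and 10.4% among the analysed genes. The AP-1 element TGANTCA was found in 10 of the 43 rises (23.3%), in 1 of the 16 falls (6.25%) and in 5.41% of analysed genes, against 7.81% of all windows. The interferon element GAAANNGAA was found in 5 of the 43 (11.6%), 0 of the 16 and 8.03% of analysed genes, against 8.56% of all windows. Cxcl10 held all 3 elements. Of the 30 kB matches in windows of the rises, 0 shared a base with a match to another element. In this count overlapping matches stand separately, and a site in several windows is counted in each. These matches are letters in a window: no binding was measured here, and no test was made of the shares.

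Adhesion molecule genes other than Icam1 and Vcam1 stayed within 2-fold: 2 of 13 clear members rose and 0 fell, with a median of 0.10. Cd44, the hyaluronan receptor, went from 1565 to 2165 (log2 ratio 0.47), and Sdc4, a heparan sulphate proteoglycan, from 2269 to 3077 (0.44). Both integrin genes Itgb1 (1601 and 1716) and Itgav (2125 and 2163) were nearly level.

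Cytokine genes contributed 1 rise. Lif, encoding a cytokine of the interleukin-6 family, went from 36.0 to 122 after 222 at 0.5 h; a second probe set with little signal gave a log2 ratio of 0.27. Of 17 clear cytokine and growth factor genes only Lif rose and 0 fell; the median was 0.10 and changed sign to -0.02 when a gene's clear probe sets were averaged. Just short of the rule stood Csf1, the growth factor of macrophages (1363 to 2655, 0.96), and Pdgfb, a mitogen of fibroblasts (372 to 699, 0.91); both passed it under each of the 3 scalings. Hbegf, a ligand of the EGF receptor, stood just short on the other side (482 to 243, -0.99). Of 12 clear cytokine receptor genes 0 passed in either direction, with Osmr, the oncostatin M receptor, at 355 and 553 (0.64) and Lifr, the receptor of Lif, at -0.57.

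In the innate sensing list Tlr2 was the 1 of 8 clear members that rose as deposited, and 0 fell. The list's median of 0.09 went to -0.05 with the mean of a gene's clear probe sets. Irak1, a kinase downstream of Toll-like receptors, went from 271 to 511 (0.91) and passed 2-fold under each of the 3 scalings. Its adaptor Myd88 went from 275 to 363 (0.40) and Ddx58, the RNA sensor RIG-I, from 92.5 to 158 (0.77). Irak2, a related kinase, went the other way, from 202 to 114 (-0.83).

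Death and survival genes changed on both sides of their function. Of 21 clear members 4 rose and 0 fell, with a median of 0.02. Birc3, which encodes the inhibitor of apoptosis cIAP2, was at 115, 87.2, 370 and 379 on the basal, 0.5, 2 and 12 h arrays. Its relative Birc2 went from 177 to 359. Fas, encoding a death receptor, rose from 132 to 445, and Bid, encoding a protein that carries the death signal to mitochondria, from 451 to 996. The survival gene Gadd45b was just short (446 to 866, 0.96) and passed under each scaling. Mcl1 (-0.39), Cflar (0.05) and Sod2 (0.07) did not pass.

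Genes of the interferon system changed in part. Irf1, a transcription factor of interferon responses, was at 151, 950, 621 and 284 on the basal, 0.5, 2 and 12 h arrays, a 4.12-fold rise at 2 h, and was the 1 riser among 14 clear IRF, STAT and SOCS genes (median 0.03). Of 14 clear interferon-stimulated genes 3 rose and 0 fell, with a median of 0.19. Among the 3, Ifi47 and Parp9 were clear at 2 h alone and could enter only by being high there. Ifi47, an interferon-inducible GTPase, had a basal signal of 3.96, under the floor, and 114 at 2 h, at least 12.5-fold more. Its relative Irgm1 rose from 171 to 350 and Parp9, an ADP-ribosyltransferase of the antiviral response, from 46.7 to 127. Classical antiviral genes did not pass: Ifit2 had a log2 ratio of -0.32 and Ifit3 of -0.07. Ifitm3, which blocks entry of viruses, went from 698 to 1213 (0.80).

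Antigen presentation by MHC class I had 1 rise among 11 clear genes, with a median of 0.17 that moved to between 0.38 and 0.39 under the 3 scalings and to 0.38 with the mean of clear probe sets. Psmb10, a catalytic subunit of the immunoproteasome, was at 159, 153, 373 and 577 in order of time. Tapbp, which loads peptides onto class I molecules, had a log2 ratio of 0.68 (1135 to 1815) and the class I gene H2-D1 of 0.65, whose probes can cross-hybridise with near-identical class I genes.

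Several enzymes and stress proteins belonged to the rises. Ch25h, which makes 25-hydroxycholesterol, went from 26.5 to 191 (7.19-fold) and was the 1 of 18 clear sterol genes to rise, the others lying between -0.30 and 0.17. Gch1, the first enzyme of tetrahydrobiopterin synthesis, was at 30.5, 31.0, 190 and 168 in order of time. Mt2, a metal-binding metallothionein, was at 289, 503, 943 and 1239. Gch1 and Mt2 were the 2 of 20 clear genes of the oxidative stress and metallothionein list that rose; the list's median of -0.01 turned to between 0.07 and 0.11 under the 3 scalings. Mt1 stood at a log2 ratio of 0.56.

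In the list of glucose uptake and glycolysis genes 2 of 15 clear members rose. Hk2, the hexokinase that traps glucose in the cell, went from 179 to 433, and Slc2a6, a sugar transporter, from 45.9 to 114. The other 13 of 15 clear genes of the list did not pass, among them Slc2a1 (1162 and 1071) and Ldha (2517 and 2438); the list's median of -0.05 was above 0 under the 3 scalings. Mmp13, a collagenase, was at 36.0, 55.6, 143 and 437 on the 4 arrays in order of time. It was the 1 of 14 clear protease and inhibitor genes that rose at 2 h (median -0.03, above 0 under the 3 scalings). Mmp3, stromelysin, had a log2 ratio of 0.81 (282 to 495). Ptx3, a secreted pattern recognition protein, rose from 1354 to 2843, 1 of 4 clear acute phase and complement genes.

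Further rises lay in genes of receptors, small GTPases and membrane traffic. S1pr3, a receptor for sphingosine 1-phosphate, went from 103 to 338, and Rnd1, a GTPase that loosens the actin cytoskeleton, from 202 to 590. Stx11, which acts in membrane fusion, rose from 114 to 479, and Tnfaip2 from 108 to 368; a low-signal probe set of Tnfaip2 gave -1.32. Nfatc1, a calcium-dependent transcription factor, rose from 56.6 to 123. Its 5 probe sets, 2 of them clear, had log2 ratios from -0.24 to 1.94. Of the 54 rises 42 stood in a response list and 12 in none. Of all 7124 analysed genes, 512 stood in any of the 40 lists, response or other. The lists were chosen with earlier results of these data known, so this count is a description. Among the 12 were Tmem140 (64.5 to 207) and 3 Hivep genes, which encode zinc finger proteins that bind kB elements: Hivep1 (107 to 245), Hivep2 (60.8 to 144) and Hivep3 (65.5 to 167). Their signals at 0.5 h, 89.5, 53.7 and 65.0, were not above basal. Hivep3 had 5 probe sets, 1 of them clear, with log2 ratios from -0.09 to 1.35. A low-signal probe set of Tmem140 gave 0.01.

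**Figure D3:**
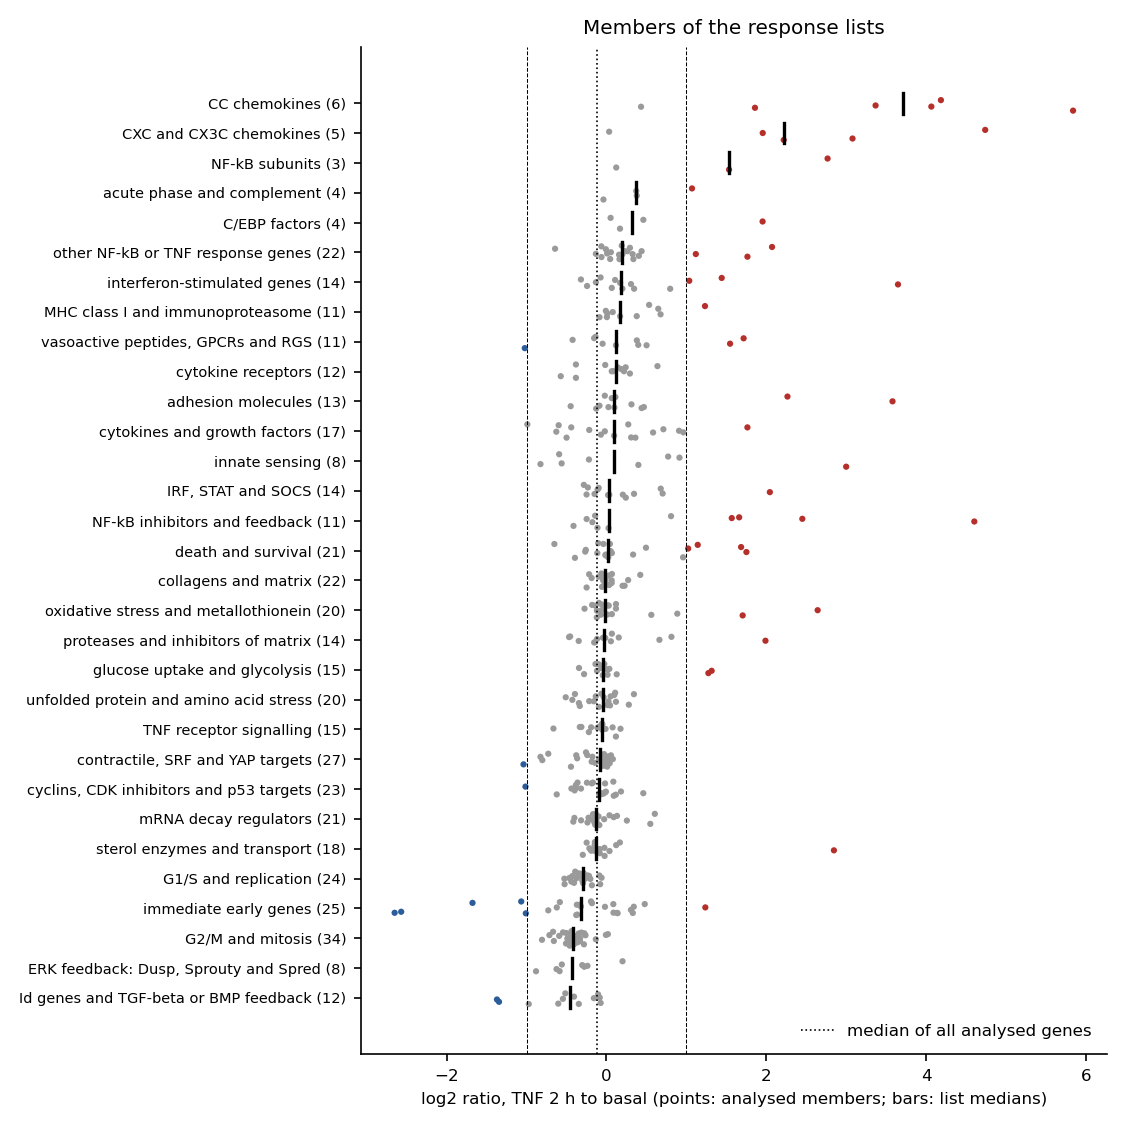
Each point is a clear member of a gene list at its log2 ratio of the 2 h to the basal array, red where it rose and blue where it fell; black bars are list medians, the dotted line is the median of all analysed genes (-0.12) and dashed lines mark 2-fold. Most chemokine points lie to the right of 2-fold, and 5 of 6 CC members entered through their 2 h signal alone. Most other lists hold few risers or none beside members within 2-fold. The medians of the immediate early, ERK feedback, Id, G1/S and G2/M lists lie furthest to the left of that line.

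Early genes of the growth factor response lay on the other side. Of 25 clear immediate early genes 5 fell and 1 rose, with a median of -0.32, which stayed below 0 under the 3 scalings. Nr4a1, an orphan nuclear receptor, was at 736, 753, 117 and 46.1 on the basal, 0.5, 2 and 12 h arrays. Egr1, a zinc finger transcription factor, was at 2174, 3688, 681 and 325. Egr3, its relative, was at 448, 537, 75.5 and 15.04, but a second probe set of low signal gave a log2 ratio of 0.04 at 2 h. The 3 genes were thus at or above basal at 0.5 h and below it at 2 and 12 h. Klf4 (781 to 373, log2 ratio -1.07) and Klf2 (342 to 170, -1.01), Kruppel-like transcription factors, passed the rule narrowly and stood short of it under each scaling. Ier3, a survival gene, was the 1 riser: 1032, 4064, 2431 and 1702 on the 4 arrays. Of the AP-1 genes, Fos had a log2 ratio of -0.62, Jun of 0.13 and Junb of 0.14.

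Feedback regulators of the ERK kinases, which the same stimuli induce, had 0 of 8 clear members past 2-fold and a median of -0.43. Spry2, an inhibitor of receptor tyrosine kinase signalling, went from 220 to 120 (-0.88) and the phosphatase gene Dusp1 from 1511 to 980 (-0.62). Dusp16 alone of the 8 was above 0, at 0.20. Ptgs2, encoding cyclooxygenase 2, an enzyme of prostaglandin synthesis that NF-kB is known to induce, was lower at 2 h than in basal cells but did not pass the rule (1116 to 712, -0.65). Pla2g4a, the other clear gene of that list, stood at -0.22.

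In the list of Id genes and feedback genes of TGF-beta and BMP signalling 2 of 12 clear members fell and 0 rose. None of the 12 had a ratio above 0, where 74.6% of all analysed genes lay below 0; the median was -0.46, and -0.34 to -0.35 under the 3 scalings. Id2, an inhibitor of differentiation factors, was at 784, 644, 309 and 182 in order of time, and its 3 probe sets gave log2 ratios between -1.34 and -0.40 at 2 h. Hes1, a repressor downstream of Notch that was placed in this list, was at 141, 131, 54.5 and 36.2. Id1 (910 to 464, -0.97) and Id3 (1647 to 1152, -0.51) did not pass. Bmp4, a ligand of this pathway, had a log2 ratio of -0.60 (1314 to 868).

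The remaining falls were spread over several lists or stood in none. Adm, the vasodilator peptide adrenomedullin (427 to 210), Mdm2, the p53 ubiquitin ligase (255 to 126), and Lmcd1, a LIM protein (378 to 184), were each the 1 fall of a list; the 3 stood short of the rule under each scaling. Malat1, a nuclear noncoding RNA, went from 434 to 185, but its 4 clear probe sets ran from -1.23 to 0.16. Rps27 fell from 235 to 95.1 while the other 28 of 29 clear ribosomal protein genes lay between -0.37 and 0.18. Slc25a14, a mitochondrial carrier (134 to 48.5), and Ces5a (204 to 80.0) were already low at 0.5 h, at 62.8 and 69.8. Rnf39 (117 to 44.8), Sorbs3 (120 to 51.2), Atg7 (113 to 50.5) and the probe set standing for Naa16 (126 to 61.0) were clear on the basal array alone. So were those of Slc25a14, Ces5a, Rps27 and Tspan12. Atg7 had a low-signal probe set at 1.95, and Ces5a had one at 0.89. Naa16 had a second clear probe set at -0.16 and stood short of the rule under each scaling (-0.93) and with the mean of its clear probe sets (-0.60). Tspan12, a tetraspanin (202 to 93.3), stood just short of it under each scaling.

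Cell cycle genes did not pass the rule, with the exception of Mdm2, placed in the list of cyclins, CDK inhibitors and p53 targets. Of 34 clear G2/M genes 0 passed 2-fold and 1 lay above 0, with a median of -0.42, and -0.30 to -0.31 under the 3 scalings. Smc4, a condensin subunit, went from 1737 to 993 (-0.81), Ttk, a spindle checkpoint kinase, from 242 to 148 (-0.71) and Aurka, a mitotic kinase, from 725 to 460 (-0.66). Of 24 clear G1/S and replication genes 0 passed and 0 lay above 0, with a median of -0.30; the replication licensing gene Cdc6 stood at -0.53. Of all analysed genes 74.6% had a ratio below 0, so a negative sign alone is common here. The 23 clear genes of cyclins, CDK inhibitors and p53 targets had a median of -0.09, which turned to between 0.03 and 0.04 under the 3 scalings. Cdkn1a, the inhibitor p21, had a log2 ratio of 0.46 and Ccnd1, cyclin D1, of -0.01.

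Structural and reference genes stayed near the shift of the array. Medians were -0.01 for 22 collagen and matrix genes, -0.09 for 27 contractile and SRF target genes, -0.05 for 20 genes of the unfolded protein response, -0.06 for 29 ribosomal protein genes and -0.07 for 10 reference genes; each was above 0 under median centring, and the lists of contractile, ribosomal and reference genes were below 0 under quantile normalization and loess. Acta2, smooth muscle actin, was at 9293 and 9465 and Col1a2 at 4869 and 5093. Of 21 clear regulators of mRNA decay 0 passed, with a median of -0.13; the largest ratio was that of Zfp36, encoding tristetraprolin, which destabilises cytokine mRNAs (95.6 to 145, 0.61).

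Genes read by several probe sets gave a check of the probes, though not of the cells. Of the 54 rises 11 had several clear probe sets; in all 11 these pointed in 1 direction, and in 9 they all passed 2-fold, the exceptions being Nfkb2 (down to 0.63) and Bid (down to 0.95). For Nfkbia 5 probe sets ranged between 1.10 and 2.65 (log2), and for Cxcl1 3 ranged between 1.78 and 3.43. Nfkbie, whose 2 probe sets gave 4.20 and 4.60, had the largest ratio read more than once. Of the 20 falls 5 had several clear probe sets, which pointed in 1 direction in 4 and all passed 2-fold in 0. Among all analysed genes 2658 had several; they pointed in 1 direction in 1726 (64.9%) and all passed 2-fold in 9. The 2 brightest probe sets of a gene differed by a median of 0.14 in log2 ratio, with 95% of the genes under 0.54. With probe sets of any signal counted, 26 rises had several, 23 of them in 1 direction, and 10 falls had several, 5 of them in 1 direction.

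**Figure D4:**
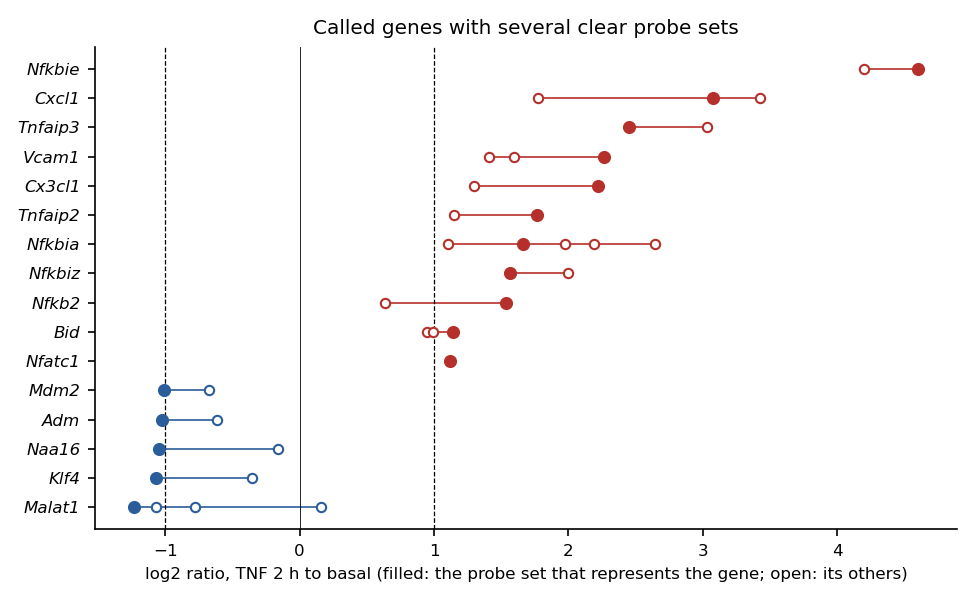
Log2 ratios of the 2 h to the basal array of every clear probe set of the 16 changed genes with several; the filled circle is the probe set that represents the gene and open circles are its others, red for rises and blue for falls, with dashed lines at 2-fold. All probe sets of the 11 rises lie to the right of 0, and 9 of the rises have all of them past 2-fold; Malat1 among the falls crosses 0.

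The choice of genes by signal also shaped the list. Of the 54 rises 26 were clear on the 2 h array alone, and of the 20 falls 11 on the basal array alone. Such genes could enter only by being high on 1 side. Among the 26 were Ifi47, Parp9, Lif, Mmp13, Ch25h, Gch1 and Slc2a6, each counted in a list above. The 28 rises that were clear on both arrays included Ccl2, Cxcl1, Tlr2, Tnfaip3, Vcam1, Cx3cl1, Irf1, Cebpd and Nfkbia. Just inside the fold rule stood Mreg (log2 ratio 1.02) and Klf2 (-1.01), and just outside it Fbxl5 (0.97), Csf1 (0.96), Lpar6 (-0.99) and Hbegf (-0.99). Near the signal threshold, Ifi47 reached 114 and Slc2a6 114 at 2 h, while Rsl1 (25.5 to 100.3, 1.98) and Flt1, a VEGF receptor (34.7 to 92.7, 1.42), were left out.

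Across the 4 arrays the genes changed at 2 h fell into different orders, given as a description because the basal and 2 h signals chose them. Of the 54 rises 37 had their highest signal at 2 h, 7 at 0.5 h and 10 at 12 h; of all 7124 genes 924 were highest at 2 h, 1693 at 0.5 h, 1008 at 12 h and 3499 in basal cells. At 0.5 h, 9 of the 54 lay below basal, among them Birc3, Psmb10, Bid and the 3 Hivep genes. Bid (log2 ratio -0.03), Psmb10 (-0.05) and Hivep3 (-0.01) were close to basal there. The 0.5 h array had a lower median signal as a whole, 21.3 against 22.1 on the basal array. At 12 h, 52 of the 54 were still above basal, while Mreg and Hivep3 were not. The shares of all analysed genes below or above basal at 0.5 and 12 h were not counted. Of the 20 falls 13 were highest in basal cells and 7 at 0.5 h, and all 20 lay below basal at 12 h. The same basal array that chose these genes stands in the comparison at 12 h. The 12 h array was also lower as a whole, with a median signal of 19.9 against 22.1 on the basal array.

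**Figure D5:**
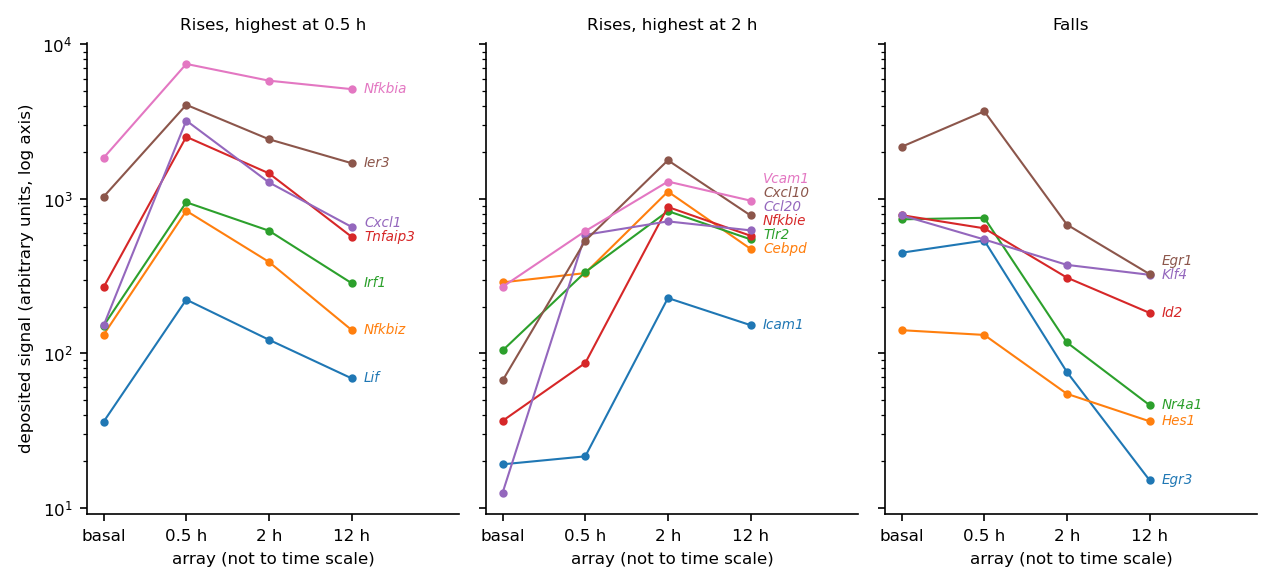
Deposited signals in arbitrary units on a log axis on the basal, 0.5, 2 and 12 h arrays (evenly spaced, not to time scale) of rises highest at 0.5 h, rises highest at 2 h and genes that fell at 2 h; each line is 1 gene, 1 array per point. Tnfaip3 goes from 268 to 2521 and back to 568 and Nfkbie peaks at 885 at 2 h; Egr1, Nr4a1 and Egr3 lie above basal at 0.5 h and below it at 2 and 12 h.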

How the data were processed

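RNA of 4 samples was measured on Affymetrix 430 2.0 arrays, 8 µg of total RNA each per the labels. The deposited values are linear intensities, 1 for each of 45101 probe sets (64 of them controls) on each array; which signal algorithm, scaling between arrays and genome build the authors used is not given in the sources used here. From them the log2 ratio of the 2 h array to the basal array was computed without further scaling, with a floor of 9.08 and a signal threshold of 102 (30th and 75th percentiles). The number of arrays limits the precision, and p-values were not computed.

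The platform annotation gave 1 gene for 34945 probe sets, several for 932 and none listed for 9160; 34741 matched RefSeq genes of GRCm38.p6 by Entrez ID, and 0 symbols changed. Where a gene had several probe sets, the one brightest on average (mean log2 signal, 4 arrays) stood for it. The 40 gene lists hold 896 genes, of which 818 were on the array and 512 analysed. The members, markers and lists were chosen with earlier results of these data known.

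Named genes were the 30 largest rises, the 15 largest falls, the 6 markers of the 2 h response and, in each list, up to 6 members past 2-fold or the 2 largest ratios where none passed. Further genes were picked with their values in view: the Hivep genes, Mreg, genes next to a threshold, and list members given as within 2-fold. Promoter windows came from RefSeq (GRCm38.p6), with 43 of 54 rises and 16 of 20 falls matched by symbol.

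Alternatives covered the floor, the signal threshold, scaling between the arrays, the handling of several probe sets and the fold. The calculation was tested on simulated data. Python 3.11.15, numpy 2.4.6, pandas 2.3.3 and matplotlib 3.10.9 were used.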

Additional observations from a re-analysis of the deposited data

How the results depend on the processing

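As deposited, 54 genes rose and 20 fell. Floors at the 20th or 50th percentile, or none, gave the same counts. This could not come out otherwise, because a signal of 102 is more than 2-fold above each of these floors. Signals raised to the 75th percentile before the ratio gave 35 and 12. A threshold at the 50th percentile on either array gave 325 and 474 of 11820 genes, the 90th percentile 23 and 7 of 3036, the 75th percentile on both arrays 28 and 9 of 6573, and no threshold 431 and 607 of 18193. Median centring gave 70 and 12, quantile normalization 68 and 12, and loess 70 and 12. The mean of a gene's clear probe sets gave 56 and 19, and asking that all clear probe sets pass gave 52 and 15. Of these, 43 rises and 15 falls had 1 clear probe set and so passed without a check. Of the genes with several, 9 of 11 rises and 0 of 5 falls passed. A 1.5-fold rule gave 109 and 220, a 3-fold rule 31 and 3. Of the 62 genes past 2-fold that the naming rule gives (the Hivep genes and Mreg are outside it), 0 changed direction in any alternative. Floors and raised signals cannot turn a ratio round, and the scalings moved ratios by far less than 2-fold. The mean of clear probe sets could turn one round only in genes with several. Of the 62 genes, 44 stayed past 2-fold with signals raised, 55 under each scaling and 57 with the mean of clear probe sets. Ccl5, Ifi47, Relb, Ch25h, Gch1 and Mmp13 were among those that no longer passed with signals raised, since a basal signal under 102 is then counted as 102.

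Each group has 1 array, so leaving out a replicate could not be done. No paired analysis was possible because the groups share no replicate beyond their single array. Signal over background sets the limit: 11069 named genes were clear on neither array and are not described, which does not show that they were unexpressed or unchanged.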

Other observations

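Probe sets without a single named gene held further signals. Of 906 such probe sets that were clear on either array, 398 stood for several genes and 508 for none listed. At 2 h, 5 of the 906 rose and 2 fell. These counts are near the shares over all analysed genes, 0.758% that rose and 0.281% that fell. The largest rise, a probe set with no gene listed, was at 120.0, 145, 552 and 250.3 on the basal, 0.5, 2 and 12 h arrays, a log2 ratio of 2.20 at 2 h. The next largest was at 94.0, 109, 306 and 133 (log2 ratio 1.70). Both had their highest signal at 2 h. In the third (139, 199, 351 and 702) and the fourth (178, 222, 378 and 881) the last array had the highest signal. Of the 2 that fell, the one with the larger change was at 747, 742, 301 and 331 (log2 ratio -1.31), close to basal at 0.5 h and low on both later arrays.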
